A study of Vitis vinifera with 2 samples.

Results

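In a table of 299 predicted grapevine miRNAs, 2 rows carry a mature sequence almost identical to that of miR396. They are novel_mir_261 and novel_mir_112, which the article calls novel_mir_42 and novel_mir_4, and they were taken from the table by name. So 2 of 299 predicted miRNAs are described. The table gives the reads of each mature sequence in 2 small RNA libraries of 'Muscat Hamburg' (Vitis vinifera) plantlets that were 6 weeks old. The CT library was made after 4 h at 4°C and the NCT library from plantlets without cold, at 26°C according to the methods. The results of the article give a slightly lower temperature for NCT. The plantlets of both libraries belonged to 1 cultivar and were grown in vitro. Several plantlets were pooled for each library, from the shoot apex with a developed leaf according to the methods and from leaf according to the labels. Since each condition has 1 library, no count here was checked in a second one, and a test of read numbers speaks of this pair of libraries and not of cold in general.

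miR396 is an old plant miRNA family that is found throughout the seed plants. In Arabidopsis it is best known for binding the transcripts of GROWTH-REGULATING FACTORS (GRFs), transcription factors that carry a QLQ and a WRC domain and promote cell proliferation in young leaves. A plant miRNA is cut from a hairpin by a Dicer-like enzyme as a duplex of both arms, and the strand that is loaded into an ARGONAUTE protein then finds its target by nearly full pairing. The position of the cut sets the first base of the miRNA and with it the seed, the bases 2 to 8.

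Both mature sequences and the known grapevine miR396 sequences are printed here because the comparison turns on single bases. The sequences run 5′ to 3′ and the seed is in capitals.
novel_mir_261: uUCCACGGcuuucuugaacuu
novel_mir_112: uUUCCACGgcuuucuugaacu
vvi-miR396a: uUCCACAGcuuucuugaacua
vvi-miR396b: uUCCACAGcuuucuugaacuu
vvi-miR396c: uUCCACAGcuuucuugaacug
vvi-miR396d: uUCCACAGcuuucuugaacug
Novel_mir_261 differed from vvi-miR396b at 1 of 21 bases, A7G, with positions counted from 1 at the 5′ end of the known miRNA. It differed from vvi-miR396a by A7G and A21U, and from vvi-miR396c and vvi-miR396d by A7G and G21U. Novel_mir_112 is the same stretch read 1 base earlier. It shares 20 bases with novel_mir_261, starts with an additional U and lacks the last U. Aligned base for base over 20 nt, it differed from all 4 known miR396 miRNAs by the same A7G. No other of 162 known grapevine miRNAs came within 2 mismatches of either sequence over at least 18 nt, and no other entry of the table matched a miR396.

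The substitution and the shift both fall into the seed. The seed of novel_mir_261, UCCACGG, is the known grapevine miR396 seed UCCACAG with the one base changed. The seed of novel_mir_112, UUCCACG, begins 1 base further upstream. None of the 162 known grapevine miRNAs has either seed, and each seed occurs in 1 of the 299 entries, the member itself. The miR396 sequences of other plants were not compared. Both sequences are 21 nt long with a U at the 5′ end, as are 143 of the 299 entries, and both have a GC content of 42.9%.

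Both mature sequences come from 1 place in the genome. The precursor listed for novel_mir_261 spans 197 nt (chr1:1997803-1997999, sense strand, build 12X of the PN40024 genome), and that listed for novel_mir_112 spans 182 nt (chr1:1997808-1997989, sense strand). The shorter precursor is contained in the longer one, which goes on for 5 nt at the 5′ side and 10 nt at the 3′ side. Novel_mir_261 occupies chr1:1997823-1997843 and novel_mir_112 chr1:1997822-1997842. The annotation of the study places both precursors between genes. In the RefSeq annotation of another grapevine assembly (ASM3070453v1), 4 MIR396 genes are named and 0 of them lie on chromosome 1. The longer precursor is shown because it holds all the sequences discussed, with the 22 bases read as either mature sequence and the listed sequence of the 3′ arm in capitals.
Longer precursor: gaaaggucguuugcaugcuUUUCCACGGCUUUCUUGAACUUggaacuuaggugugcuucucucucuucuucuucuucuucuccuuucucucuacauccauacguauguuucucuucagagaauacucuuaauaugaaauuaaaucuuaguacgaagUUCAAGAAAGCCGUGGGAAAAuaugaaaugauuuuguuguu
Both mature sequences are present in either precursor.

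The 2 sequences were listed in different libraries. Novel_mir_261 was listed with 2897 reads in the CT library and with a count of 0 in the NCT library. Novel_mir_112 was listed with a count of 0 in the CT library and with 3445 reads in the NCT library. A count of 0 means here that the sequence was not listed, not that its reads were shown to be absent. Each was thus listed in a single library, with no overlap. Scaled to the 25915815 clean reads of CT and the 21355400 of NCT, novel_mir_261 reached 112 TPM in CT (95% Wilson interval 108 to 116) and novel_mir_112 reached 161 TPM in NCT (156 to 167). TPM here is the number of reads divided by the clean reads of the library and scaled to 1000000, and the intervals cover counting error only.

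**Figure D1:**
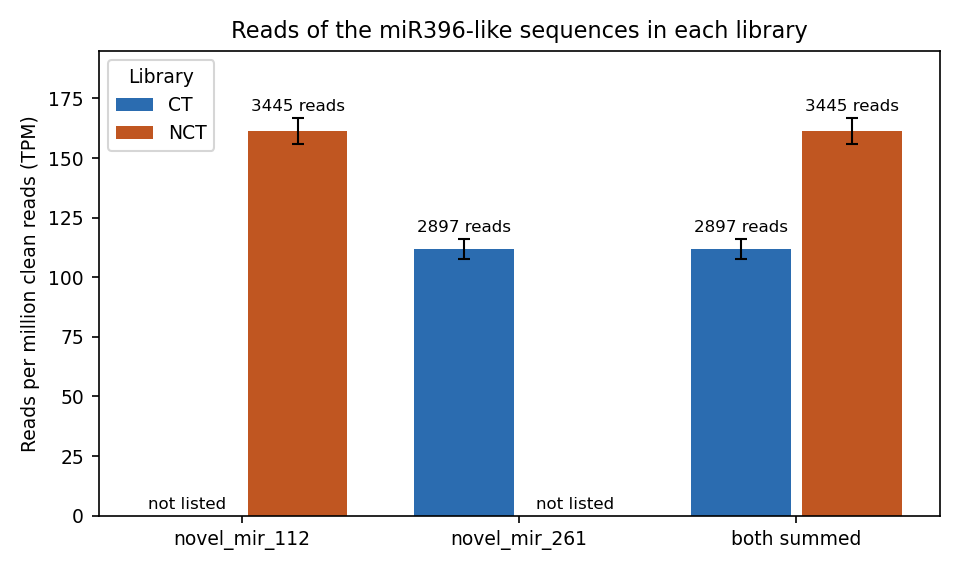
TPM (y axis) of novel_mir_112, novel_mir_261 and their sum (x axis) in the CT library (blue) and the NCT library (orange). Bars are single libraries and error bars are 95% Wilson intervals for counting error. Each sequence is listed in one library, and the sums are 112 TPM in CT and 161 TPM in NCT.

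A listing in one library was common in this table and is no particular feature of the 2 sequences. Of 299 entries, 89 (29.8%) were listed in CT only and 107 (35.8%) in NCT only. The lowest count above 0 was 5, so a 0 means that an entry was not listed, and no limit on its reads can be drawn from it. The counts of the members were high among such entries. The median count was 8 reads among the entries listed in CT only and 9 among those listed in NCT only. Novel_mir_261 had the second-highest count of the CT-only entries. The nearest to it were novel_mir_238 with 3916 reads (151 TPM) and novel_mir_286 with 521 reads (20.1 TPM). Novel_mir_112 had the second-highest count of the NCT-only entries, between novel_mir_114 with 4288 reads (201 TPM) and novel_mir_168 with 1625 reads (76.1 TPM). Among all listed entries, novel_mir_261 ranked 8 of 192 in CT and novel_mir_112 ranked 7 of 210 in NCT.

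**Figure D2:**
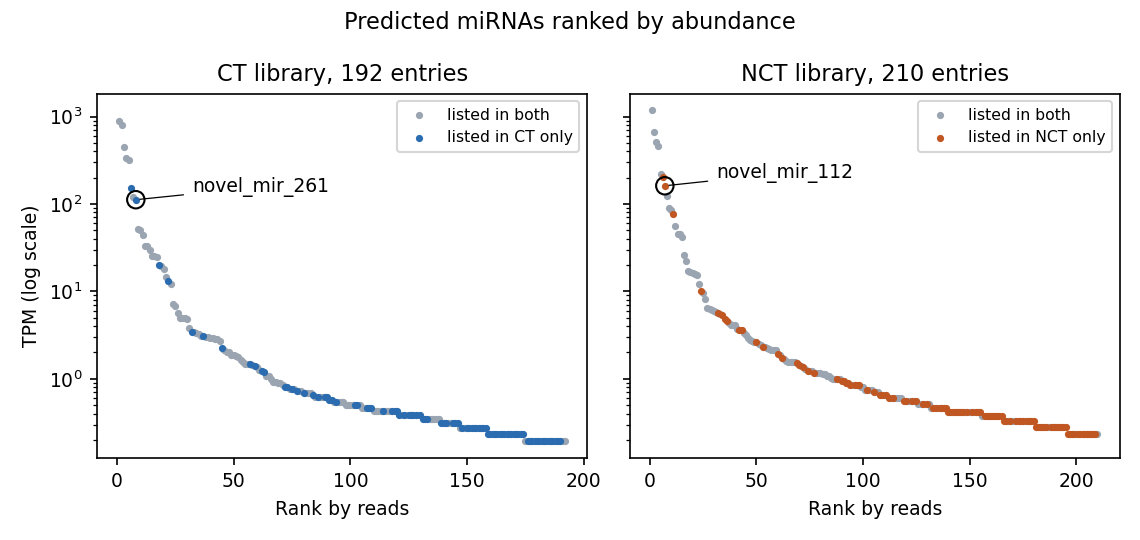
TPM on a log scale (y axis) of every listed entry against its rank by reads (x axis), in the CT library (left) and the NCT library (right). Grey points are entries listed in both libraries, and coloured points those listed in that library only. Novel_mir_261, at rank 8 in CT, and novel_mir_112, at rank 7 in NCT, stand with a few other single-library entries in the upper part of the curve, while most such entries lie at its low end.

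With a count of 0 set to 0.01 TPM, as in the methods of the study, the log2 ratio of CT to NCT was 13.45 for novel_mir_261 and -13.98 for novel_mir_112. Limits of 10 TPM in a library, a log2 ratio over 1 in size and a p of at most 0.001 by Fisher's exact test (two-sided) count novel_mir_261 as higher and novel_mir_112 as lower in CT. With counts this high against an entry that is not listed, these limits had to be passed, so nothing is read from the calls. Among 28 entries over 10 TPM, 5 (17.9%) passed as higher in CT and 7 (25%) as lower. The size of both ratios is set by the value given to a 0, and the ratios reflect which sequence was listed.

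The reads listed for the hairpin can also be summed over both mature sequences, which sets the 1 listed sequence of CT against the 1 listed sequence of NCT and leaves out whatever is not listed. The sums were 2897 reads (112 TPM) in CT and 3445 reads (161 TPM) in NCT. The log2 ratio was -0.53 with a counting error of 0.036 (SE), a ratio of 0.693 (95% interval 0.660 to 0.728). Fisher's exact test (two-sided) gave p = 3.4e-48. The difference in listed reads exceeded counting error but stayed below the log2 limit of 1, so the sum was not called. Since a different sequence was listed in each library, this p does not measure a change of the hairpin. For comparison, the median log2 ratio was -0.41 over the 103 entries with reads in CT and in NCT, with quartiles of -0.75 and -0.05. Of them, 41 had a lower ratio than the sum and 62 a higher one. The difference between the sum and that median was -0.12 on the log2 scale. Among the 20 of these entries over 10 TPM in a library, the median was -0.30, and 6 had a lower ratio than the sum. As a share of all reads in the table, the listed reads of the hairpin took 2.97% in CT (95% Wilson interval 2.86 to 3.08) and 3.71% in NCT (3.59 to 3.83). The same exact test gave p = 2.8e-19, which has the same limit.

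**Figure D3:**
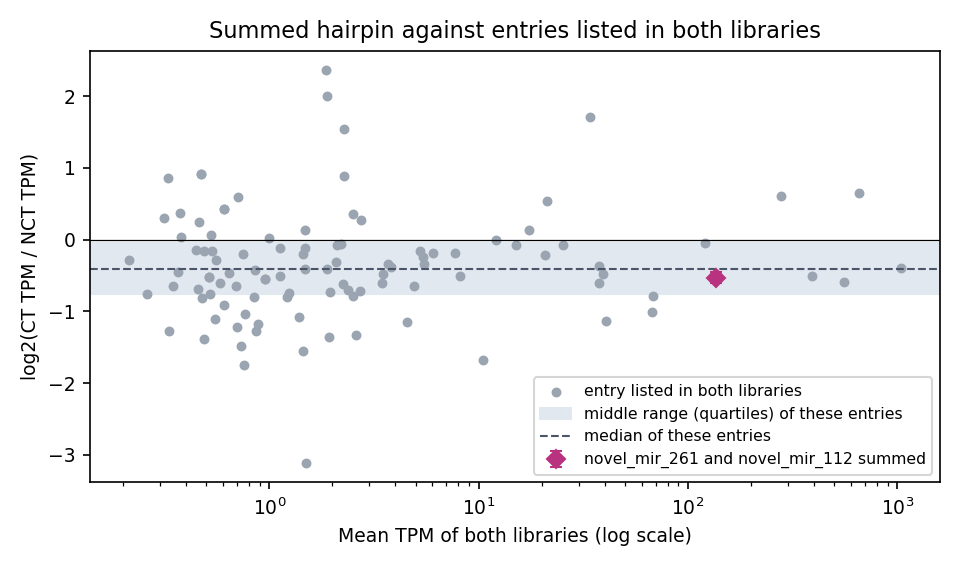
The log2 ratio of CT to NCT TPM (y axis) against the mean TPM of both libraries on a log scale (x axis). Grey points are the 103 entries listed in both libraries, the dashed line is their median (-0.41) and the band spans their quartiles. The diamond is the sum of novel_mir_261 and novel_mir_112 at -0.53, inside the band, with a 95% interval for counting error that is smaller than the symbol.

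The way the table lists a hairpin bears on how these counts read. It names 240 precursors in CT and 306 in NCT, and 0 of them in CT and 0 in NCT were listed with more than 1 mature sequence or with both arms. This count goes by precursor number and not by place in the genome. The article gives overlapping precursors for novel_mir_174 and novel_mir_276, and both were listed in CT, with 130 and 342 reads. Reads of novel_mir_112 in CT or of novel_mir_261 in NCT were not analysed here, since the table does not list them. Novel_mir_261 was read from precursor 125 of the CT list and novel_mir_112 from precursor 157 of the NCT list, in both cases from the 5′ arm. The next precursor, 126 in CT and 158 in NCT, was in both lists that of novel_mir_113, with 23311 reads in CT and 25311 in NCT. The other neighbours within 2 numbers differed between the lists. They were novel_mir_110, novel_mir_260 and novel_mir_117 in CT and novel_mir_19, novel_mir_111 and novel_mir_114 in NCT. In the genome, novel_mir_113 lies 1867565 nt downstream.

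Other pairs of similar sequences were listed in different libraries at far lower counts. In all, 5 pairs of a CT-only and an NCT-only entry shared a run of at least 16 nt. Whether the other 4 pairs share a hairpin was not tested. The pair of novel_mir_261 and novel_mir_112 was the most abundant. Novel_mir_274 (58 reads in CT) and novel_mir_152 (49 reads in NCT) shared 21 nt, with a log2 ratio of -0.04 ± 0.28 (counting SE). Novel_mir_240 (31 reads in CT) and novel_mir_68 (78 reads in NCT) shared 20 nt, with a log2 ratio of -1.61 ± 0.31. Novel_mir_251 (10 reads in CT) and novel_mir_95 (7 reads in NCT) shared 21 nt, and novel_mir_254 (6 reads in CT) and novel_mir_100 (5 reads in NCT) shared 16 nt and lay on different arms. The first base was the same in novel_mir_240 and novel_mir_68 and in novel_mir_251 and novel_mir_95. It was shifted by 1 base in the miR396-like pair and in novel_mir_274 and novel_mir_152. In the miR396-like pair both ends moved by 1 base in the same direction, which left the length at 21 nt.

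Folded in silico, both precursors formed the same stem. RNAfold gave a minimum free energy of -59.1 kcal/mol for the precursor of novel_mir_261 and -54.8 kcal/mol for that of novel_mir_112. All 21 bases of either mature sequence were paired, 1 of them as a G:U pair. The longest run of stacked pairs was 23 bp in each precursor and covered the whole mature sequence. Among 65 placed precursors of predicted miRNAs, the median of this run was 10 bp, and 5 precursors had a longer one. In 6 of the 65, the 2 members included, every base of the mature sequence was paired, while the median precursor had 18 paired bases in its mature sequence. The stem was thus long, but the energy per base was ordinary, at -0.300 kcal/mol per nt for novel_mir_261 and -0.301 for novel_mir_112 against a median of -0.315. The base that differs from the known grapevine miR396, the G of A7G, was paired with a C of the opposite arm.

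The arms lie far apart in the precursor, with 115 nt between the end of novel_mir_261 and the 3′ arm sequence. The 3′ arm sequence (chr1:1997959-1997979) is the same for both members.
3′ arm: uucaagaaagccgugggaaaa
In the predicted fold, novel_mir_261 extended 3 bases past the 5′ end of the 3′ arm sequence, and the 3′ arm sequence extended 3 bases past the first base of novel_mir_261. For novel_mir_112 both overhangs were 2 bases. Overhangs of this second kind are the usual product of a Dicer-like cut. The 3′ arm sequence is not an entry of the table, and its reads were not analysed here.

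**Figure D4:**
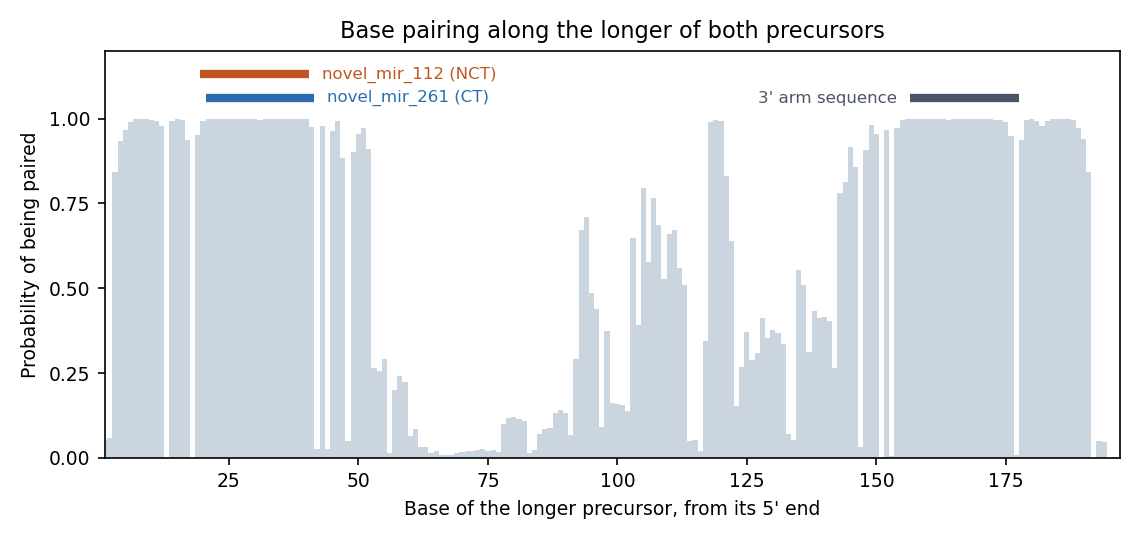
Probability that a base is paired (y axis, RNAfold at 37°C) along the longer precursor, counted from its 5′ end (x axis). Bars above the profile mark novel_mir_261 (blue), novel_mir_112 (orange) and the listed 3′ arm sequence (grey). The 22 bases covered by the mature sequences have probabilities of at least 0.975, whereas the 115 bases between the arms have a median of 0.287.

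The target windows that the study lists for the 2 members were compared by their letters alone. Its lists hold 15 transcripts for novel_mir_261 and 16 for novel_mir_112, of which 12 stand in both and 19 in either. The same transcripts carry different annotation texts in the 2 lists, so no function is given to a transcript ID here. Bases 1 to 19 of novel_mir_261 are bases 2 to 20 of novel_mir_112, so over these 19 bases both members pair with a window in the same way. The known grapevine miR396 miRNAs are identical to each other over these bases, which allows one comparison of the members with those miRNAs.

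The most frequent window was shared by 8 of the 19 transcripts and is shown for its bulge.
Window: guucaagaaagccuguggaa
It occurred in GSVIVT01007165001, GSVIVT01009299001, GSVIVT01015095001, GSVIVT01016762001, GSVIVT01019667001, GSVIVT01024326001, GSVIVT01027535001 and GSVIVT01038629001, and the first 7 of these stand in both lists. With 1 unpaired base of the transcript bulged out, all 19 bases of the members paired with it, and so did all 19 bases of miR396, in both cases without a G:U pair. For the members this holds with the bulge after base 6. The bulge could also be placed after base 7 or 8 of the members, but base 7 then formed a G:U pair. In miR396 the bulge lay after base 7 or 8, with no G:U pair. The number of pairs was the same in each case. GRF transcripts of Arabidopsis are known for a bulged miR396 site, which was not compared with this window here. Without a bulge, 14 of the 19 bases paired in the members as in miR396.

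The other 2 windows with a bulged base of the transcript gave equal counts. In GSVIVT01019913001 the 19 bases paired in the members, 1 of them as G:U, and in miR396 without G:U. In GSVIVT01038628001, whose window reaches base 18, 18 bases paired in each. In GSVIVT01032797001 a base of the miRNA was bulged instead, and 17 bases of the members paired against 16 of miR396. A window without a bulge was fully paired in 1 transcript of both lists, GSVIVT01013053001, with 4 G:U pairs for the members and 3 for miR396.

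Over all 19 windows the members had 16 to 19 paired bases and miR396 had 15 to 19, with a median of 19 for each. The members had more pairs in 7 windows, the numbers were equal in 12, and miR396 had more in 0. With G:U counted as a mismatch, the members had more pairs in 7 windows, the numbers were equal in 8, and miR396 had more in 4. Base 7 accounted for each of these differences. It was paired in all 19 windows in the members and in 12 windows in miR396. In the members 4 of these pairs were G:U, with the bulge of the most frequent window placed after base 6. With that bulge after base 7 or 8, base 7 is a G:U pair in the 8 transcripts of that window as well. In GSVIVT01003129001 and GSVIVT01022680001, which stand in both lists, 18 bases of the members paired against 17 of miR396. For GSVIVT01003129001 the article also reports a mapped cleavage site that corresponds to novel_mir_112. It further reports a negative correlation between the expression of that transcript and of novel_mir_112. Those experiments were not analysed here. The windows had been selected by the study for pairing with the members and not with miR396, so the count in favour of the members is a description of the lists.

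The members themselves differ only in what lies beyond the shared bases. For 16 windows the lists give the base of the transcript opposite the additional first U of novel_mir_112. It was A in 6 windows, G in 8, which allows a G:U pair, and U in 2, which does not pair. For the window shared by 8 transcripts the base is given in 7, as G in 5 and U in 2. The transcripts with a U are GSVIVT01019667001 and GSVIVT01024326001.

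**Figure D5:**
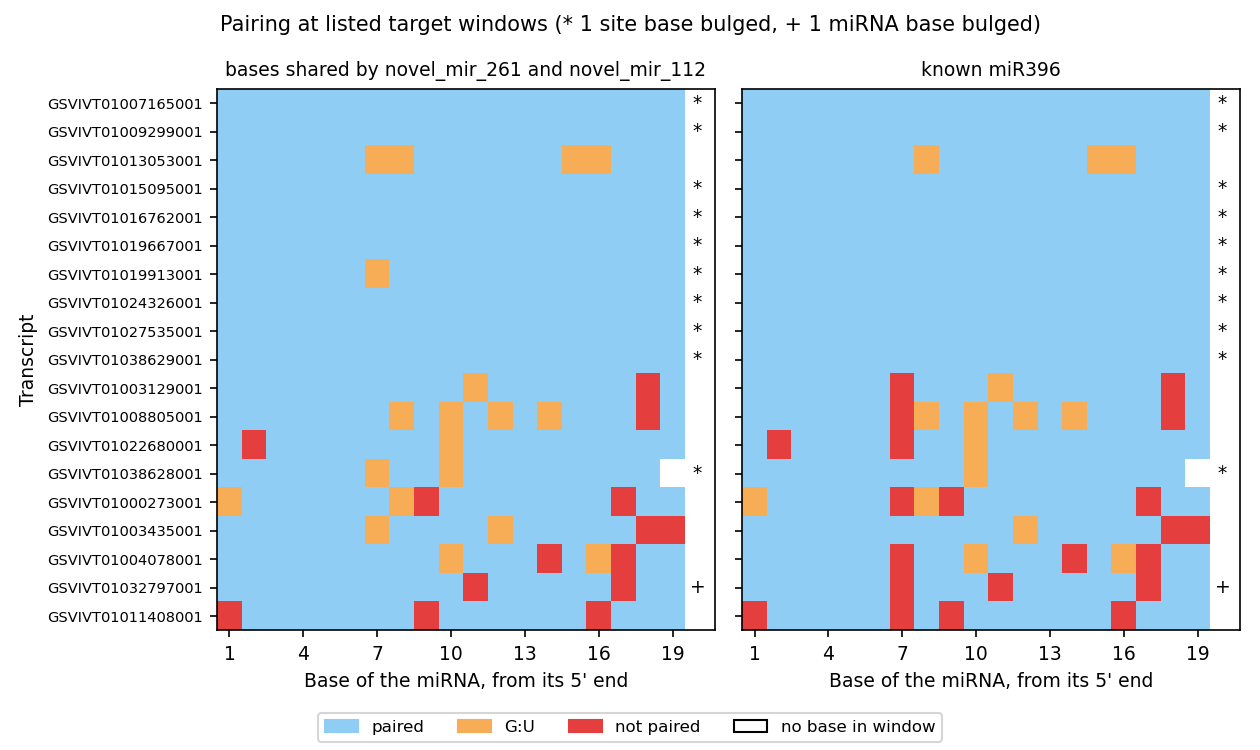
Pairing of each listed transcript window (rows) with bases 1 to 19 (x axis, from the 5′ end) of novel_mir_261, which are bases 2 to 20 of novel_mir_112 (left), and with the same bases of known miR396 (right). Blue is a pair, orange a G:U pair, red no pair and white no base in the window, and a star or plus marks a bulged base of the site or of the miRNA. Where several places of a bulge gave equal counts, the place nearest the 5′ end of the miRNA is drawn. The panels differ at base 7, which is paired in 19 windows for the members and in 12 for miR396.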

How the data were processed

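The values are raw read counts per mature sequence, which the authors deposited without normalization for 1 CT and 1 NCT library, each from pooled plantlets. According to the methods, the authors trimmed adaptors, used SOAP2 to map the reads to build 12X of the PN40024 genome, removed those from known miRNA precursors or from further classes of non-coding RNA, and predicted hairpins with Mireap. Reads assigned to known miR396 are thus not in the table. The methods count a sequence as a known miRNA with up to 2 mismatches, and both members lie within 2 mismatches of miR396. Why they were listed as predicted miRNAs was not tested. Their hairpin was not compared with those of known miR396. Library totals and sequences of precursors, known miRNAs and target windows come from the supplements of the study, and no expression value was taken from them. The depth of 25915815 (CT) and 21355400 (NCT) clean reads makes 1 read worth 0.0386 and 0.0468 TPM.

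Libraries were compared by Fisher's exact tests (two-sided), with 95% Wilson intervals, which cover counting error only. No dispersion could be estimated. The test was checked on simulated counts. Free energies came from RNAfold (ViennaRNA 2.7.2, 37°C). Windows were aligned with at most 1 bulged base and G:U as a pair. Alternatives were other library totals and factors (edgeR 4.0.16 for TMM), other limits and other folding parameters. Python 3.11.15, scipy 1.17.1 and R 4.3.3 were used. Named entries were the members, entries or known miRNAs like them in sequence, the nearest in TPM of the same library, pairs shared between the libraries, and the windows with the fewest unpaired bases or with a bulge. The members, lists and tests were chosen with earlier results of these data known. Real-time RT-PCR values of the study were not analysed here.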

Additional observations from a re-analysis of the deposited data

How the results depend on the processing

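The calls of the members say nothing of stability under other totals, factors or values for a 0, since none of these can change which sequence is listed. With the listed reads summed as 1 hairpin, the log2 ratio was -0.53, which was not called, lay far nearer 0 than that of novel_mir_112 and had the opposite sign to that of novel_mir_261. This follows from the sum itself. The sum was -0.12 with median-of-ratios or TMM factors. Those factors moved the median log2 ratio of entries with reads in CT and NCT to 0, by 0.41 on the log2 scale. Without the TPM limit, 32 of all 299 entries were called higher and 69 lower in CT, since entries of few reads then entered. For entries listed in a single library, such a call rests on the value given to a 0. The free energy was -61.5 and -57.3 kcal/mol with the older Turner parameters for the precursors of novel_mir_261 and novel_mir_112, and -104 and -96.3 kcal/mol at 4°C, with all 21 mature bases paired each time. The median number of paired bases at the target windows fell to 14 without a bulge and to 17 with G:U as a mismatch, for the members as for miR396, and with G:U as a mismatch miR396 had more pairs in 4 windows. The other arm could not be added, as the table lists no reads for it. No paired analysis was possible because only 1 CT and 1 NCT library exist here, which also leaves the spread between plantlets unmeasured.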
